A study of Equus caballus with 8 samples.

Results

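The genes for fibronectin (FN1), SPARC, the transforming growth factor-beta-induced protein (TGFBI), 3 tenascins (TNC, TNN and TNXB) and 4 thrombospondins (THBS1, THBS2, THBS3 and COMP) were followed by RNA-sequencing in equine mesenchymal stem cells of the bone marrow (BM-MSCs). They were chosen by gene symbol, with earlier results of these data known, and all 10 symbols had a row among the 15266 named genes. BM-MSCs are plastic-adherent stromal cells, here grown from the sternal marrow of adult Thoroughbred or Thoroughbred-cross horses. Marrow of 4 horses, labelled D, J, L and W, was divided, and 1 library was made per horse from the untreated share and 1 from cells given 1 ng/ml recombinant human TGF-β2. Both groups were grown in low-glucose medium with fetal bovine serum, antibiotics and, in the study's methods, basic fibroblast growth factor. The labels place the treatment between isolation and passage 3 or 4, whereas the methods give 3 passages. The 4 untreated libraries held 40044240 to 57228675 counted reads and the 4 treated libraries 39184554 to 46634539. The untreated library of horse J was the deepest, and its genes lay a median of 0.42 on the log2 scale from the other untreated libraries, against 0.24 to 0.25 for those of D, L and W. Each culture was sequenced once, so the spread given here is that between horses, with the culture included in it.

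Fibronectin is a secreted dimer that cells pull into fibrils through integrin receptors, and later matrix proteins, collagen among them, are laid down on those fibrils. SPARC, the tenascins and the thrombospondins belong largely to the matricellular proteins, which sit in the matrix and alter how cells hold to it rather than bearing load themselves. In tendon, tenascin-C and COMP are well-known matrix components, and tenascin-X lies along collagen fibrils. TGF-β is a classical inducer of fibronectin and of much of the stromal matrix.

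Treated cells had more FN1, SPARC, TGFBI, TNC, TNN, THBS1 and THBS2 RNA than untreated cells of the same horse, in all 4 horses. TNXB was lower in every horse, and THBS3 and COMP moved in different directions in different horses. Levels are normalized counts, that is, reads of a gene over the size factor of its library, and fold changes are on the log2(normalized count + 1) scale, which understates the change of low genes. A gene was called when the Benjamini-Hochberg adjusted p from limma over the 14907 genes tested was under 0.05 and the absolute log2 fold change over 1. All 10 genes were tested, and 7 were called higher and 0 lower, against 5.59% higher and 5.87% lower, 11.5% in all, among the genes tested. When limma was blocked by horse, the same 7 were called higher and 1, TNXB, lower (6.83% and 7.31% of all genes, 14.1% together). At an adjusted p under 0.01 without the block 3 were called, namely FN1, THBS1 and THBS2, where 885 of the 14907 genes tested were called. The median log2 fold change of the 10 genes was 2.35, and that of all genes tested was 0.01. The treated and untreated libraries did not overlap for 7 genes that were higher and 1 that was lower (13.9% of all genes in each direction). The direction was shared by all 4 horses for 8 genes, as it was for 51.9% of all genes tested. Because the 10 genes were chosen with earlier results of these data known, these comparisons with all genes are a description and not a test. In bulk RNA a change in the share of cells that make a transcript and a change in RNA per cell cannot be told apart.

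**Figure D1:**
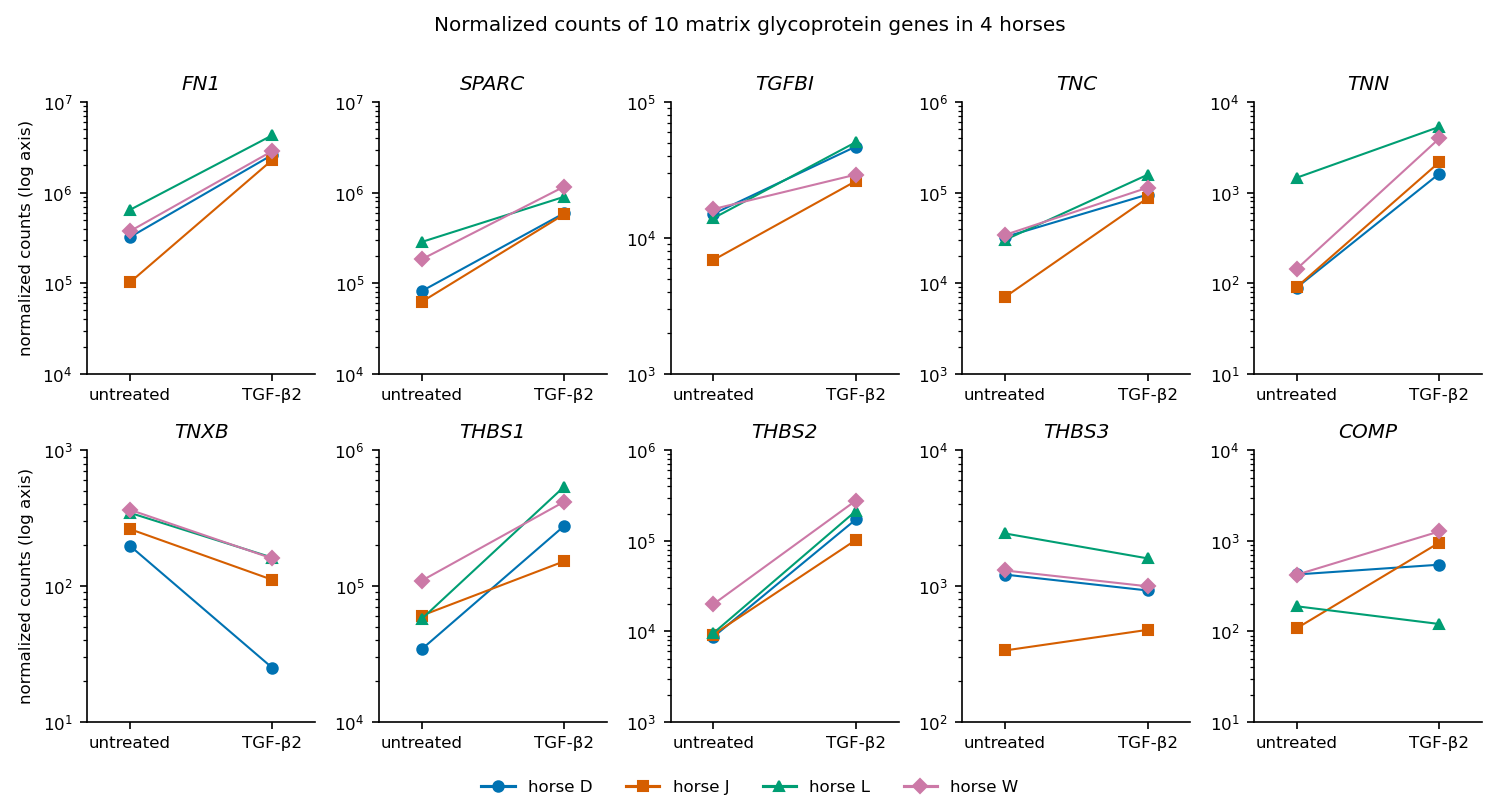
Normalized counts (log axis) of the 10 genes in untreated and TGF-β2-treated cells, with 1 line per horse joining its pair of libraries. The lines of FN1, SPARC, TGFBI, TNC, TNN, THBS1 and THBS2 rise in all 4 horses, those of TNXB run downward in all 4, and those of THBS3 and COMP go up in some horses and down in others.

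FN1, the gene for fibronectin, had 322663, 101984, 646088 and 375109 normalized counts in the untreated cells of horses D, J, L and W. After treatment the same horses had 2622818, 2308282, 4315259 and 2888531. The lowest treated library thus lay above the highest untreated one, and horse L was highest and horse J lowest in both groups. The rise was 22.6-fold in horse J and 6.68-fold to 8.13-fold in the other horses. The log2 fold change of FN1 was 3.30 (standard error 0.60; limma adjusted p = 0.00702, and 0.00596 with the horse as a block). Without horse J, whose untreated library stood apart, it was 2.90 (limma adjusted p 0.0155). Without horse D it was 3.39, and the call was lost (limma adjusted p 0.0651) unless the horse was a block (0.0412).

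SPARC encodes a collagen-binding matricellular protein, also called osteonectin, that takes part in the assembly of collagen fibrils. Untreated cells of horses D, J, L and W had 81676, 62177, 285417 and 183720 normalized counts of SPARC, and treated cells 593868, 575966, 900910 and 1167090. The groups did not overlap, and horses L and W were the higher pair in both. Horse L, the highest untreated, had the smallest log2 change, 1.66, and the others ran from 2.67 to 3.21. The log2 fold change of SPARC was 2.60 (standard error 0.52), and limma gave adjusted p values of 0.0104 and, blocked by horse, 0.00487. The call was lost without horse D and without horse W (limma adjusted p 0.0747 and 0.0564), and kept in both cases when the horse was a block (0.0394 and 0.0327). In the RefSeq annotation of the TB-T2T horse assembly SPARC overlaps a long non-coding RNA, LOC138917448, not analysed here.

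TGFBI encodes a secreted protein with fasciclin domains that binds collagens and integrins and was named for its induction by TGF-β. It had 15053, 6883, 13975 and 16318 normalized counts in the untreated cells of horses D, J, L and W and 47111, 26225, 50762 and 29279 in the treated cells. The untreated values of D, L and W lay close together, whereas the treated values fell into a higher pair, D and L, and a lower pair, J and W. TGFBI had the smallest log2 fold change of the 7 called genes, 1.57 (standard error 0.33), and limma gave adjusted p values of 0.0121 and, blocked by horse, 0.00555. In horse W the change was 0.84 on the log2 scale, and in the other horses 1.65 to 1.93. Without horse D and without horse L the limma adjusted p was 0.0741 and 0.0554, and with the block 0.0371 and 0.0216.

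TNC encodes tenascin-C, a multi-armed glycoprotein of developing and healing tissues and of tendon. Its untreated values were 32416 in horse D, 7053 in J, 30141 in L and 34222 in W, so that J was far below a tight group of 3. The treated values were 95455, 87230, 157922 and 113614, all above the untreated ones, and J was still lowest but close to D. The change in horse J, 12.4-fold, was the largest, against 2.94-fold to 5.24-fold in the others. The log2 fold change of TNC was 2.33 (standard error 0.50), and limma gave adjusted p values of 0.0140 and, blocked by horse, 0.00896. Without horse J it fell to 1.89 while its limma adjusted p went down to 0.00323. Leaving out horse D, L or W in turn lost the call (limma adjusted p 0.0650, 0.0555 and 0.0640), and with the block none of these did (0.0319, 0.0322 and 0.0421).

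TNN encodes tenascin-N, also called tenascin-W, a family member found mainly in bone and in stroma around tumours. In untreated cells it had 89.6, 90.9 and 144 normalized counts in horses D, J and W, but 1465 in horse L. Treated cells had 1623 in D, 2173 in J, 5339 in L and 3975 in W. The groups did not overlap, although untreated L came close to treated D. The log2 change was 1.86 in horse L and 4.16 to 4.78 in the other 3. TNN rose by 3.84 on the log2 scale (standard error 0.88), and limma gave adjusted p values of 0.0174 and, blocked by horse, 0.00571. Without horse L the change was 4.50 (limma adjusted p 0.00326). The call was lost without horse D and without horse W (limma adjusted p 0.0848 and 0.117, but 0.0373 and 0.0406 with the block). It was also lost with edgeR's quasi-likelihood test, run only without a horse term (adjusted p 0.0730). The count behind TNN ran from 103 to 4644 reads a library. In the same annotation TNN overlaps MRPS14, a mitochondrial ribosomal protein gene, whose log2 fold change was 0.24 (limma adjusted p 0.488).

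TNXB encodes tenascin-X, which spaces and links collagen fibrils and whose loss in people gives a form of Ehlers-Danlos syndrome with lax skin and joints. Untreated cells had 198, 263, 347 and 365 normalized counts in horses D, J, L and W, and treated cells 25.0, 111, 162 and 160. Every treated library lay below every untreated one. Horse D, the lowest in both groups, had a log2 change of -2.94, whereas J, L and W lay between -1.23 and -1.09. The log2 fold change of TNXB was -1.61 (standard error 0.57, 95% interval -2.93 to -0.30). It missed the threshold in limma without the horse (adjusted p 0.0772) and passed it when blocked by horse (0.0227). Without horse D the change was smaller, -1.17, and limma gave adjusted p values of 0.0514 and, blocked by horse, 0.0307. Blocked fits without J or L called it too, and the one without W did not (limma adjusted p 0.0802). DESeq2 called TNXB whether or not the horse was a term (adjusted p 4.45e-04 and 0.0296, where 8.26% and 7.49% of all genes were called lower). The edgeR test, run only without a horse term, did not call it (adjusted p 0.0904). TNXB was counted from 21 reads in treated horse D to 391 in untreated horse J, and in the TB-T2T annotation it overlaps CYP21A1, a steroid hydroxylase gene not analysed here. Counts of genes that overlap, SPARC, TNN and TNXB among them, depend on a strand setting that is not given in the sources used here.

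THBS1 encodes thrombospondin-1, a trimer known for releasing TGF-β from its latent complex and for holding back new vessels. Its untreated values were 34239, 60609, 57218 and 109589 in horses D, J, L and W, and its treated values 277276, 152336, 539529 and 418232. The groups did not overlap, but the order of the horses changed, with D lowest before treatment and J lowest after it. The rise was 2.51-fold in J, 3.82-fold in W, 8.10-fold in D and 9.43-fold in L. For THBS1 the log2 fold change was 2.38 (standard error 0.47), and limma gave adjusted p values of 0.00976 and, blocked by horse, 0.00865. Without horse D and without horse L the limma adjusted p was 0.0711 and 0.0523. Of the fits that left out 1 horse and kept the horse as a block, the one without D lost the call of THBS1 (limma adjusted p 0.0510).

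THBS2 encodes thrombospondin-2, a close relative of THBS1 that binds metalloproteinases and also restrains vessels. It had 8682, 9234 and 9548 normalized counts in untreated horses D, J and L and 19961 in W. In treated cells it had 172258 in D, 102229 in J, 213642 in L and 278244 in W. The treated mean was 16.2 times the untreated one, and the groups were far apart. The log2 change was similar in all 4 horses, from 3.47 in J to 4.48 in L. THBS2 had the largest log2 fold change of the 10 genes, 4.02 (standard error 0.37), and ranked 104 among all genes tested. The next was TNN with 3.84, and the difference between them was within their standard errors. The adjusted p of THBS2 from limma was 6.24e-04, or 0.0010 with the block, and it was called with any 1 horse left out.

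THBS3 and COMP belong to the pentameric thrombospondins, and COMP, cartilage oligomeric matrix protein, is abundant in cartilage and tendon. THBS3 had 1216, 336, 2442 and 1304 normalized counts in untreated horses D, J, L and W, and 929, 476, 1601 and 997 in treated ones. The order of the horses was the same in both groups, and the spread between them exceeded any change. The log2 change of THBS3 was 0.50 in horse J and -0.61 to -0.39 in the other 3. Its log2 fold change was -0.22 (95% interval -1.58 to 1.14), with a limma adjusted p of 0.83. With the block the interval narrowed to -0.71 to 0.27, and the adjusted p was 0.434. Without horse J and with the block it was -0.46 (limma adjusted p 0.0190), short of the fold threshold.

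COMP had 425, 108, 189 and 423 normalized counts in untreated horses D, J, L and W. After treatment it had 546, 956, 121 and 1271. The treated value was 8.82 times the untreated one in J, 3.00 times in W, 1.28 times in D and 0.637 times in L. The ranges overlapped, and the log2 fold change of COMP, 1.11 (95% interval -0.64 to 2.85), had a limma adjusted p of 0.334, or 0.214 with the block. It was 0.43 without horse J and 1.69 without horse L. The treated library of horse J also had 9128 normalized counts of the bone matrix gene IBSP, 39045 of ALPL and 3705 of SP7, the highest of the 8 libraries for each. COMP itself was highest in the treated library of horse W. The sum of these 3 osteoblast markers, of 4 listed, ran from 4470 to 26900 in untreated and from 1445 to 51878 in treated libraries. Their median log2 fold change was -1.29. Of the 3, 0 were called without or with the block, against 11.5% and 14.1% of all genes tested. The 3 chondrocyte markers read, of 4 listed, summed to 338 to 1090 and to 1089 to 1456. Among them, SOX9 rose by 1.21 on the log2 scale (limma adjusted p 0.0332). Aggrecan (ACAN) ran from 0 to 198 normalized counts and MATN3 from 2.14 to 61.8 over all libraries. The median log2 fold change of the 3 chondrocyte markers was -0.43, so ACAN and MATN3 both had negative changes. Without the block 1 was called higher and 0 lower (5.59% and 5.87% of all genes tested). With it 1 was called in each direction (6.83% higher and 7.31% lower of all genes). The part of these genes in the values of COMP was not tested.

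**Figure D2:**
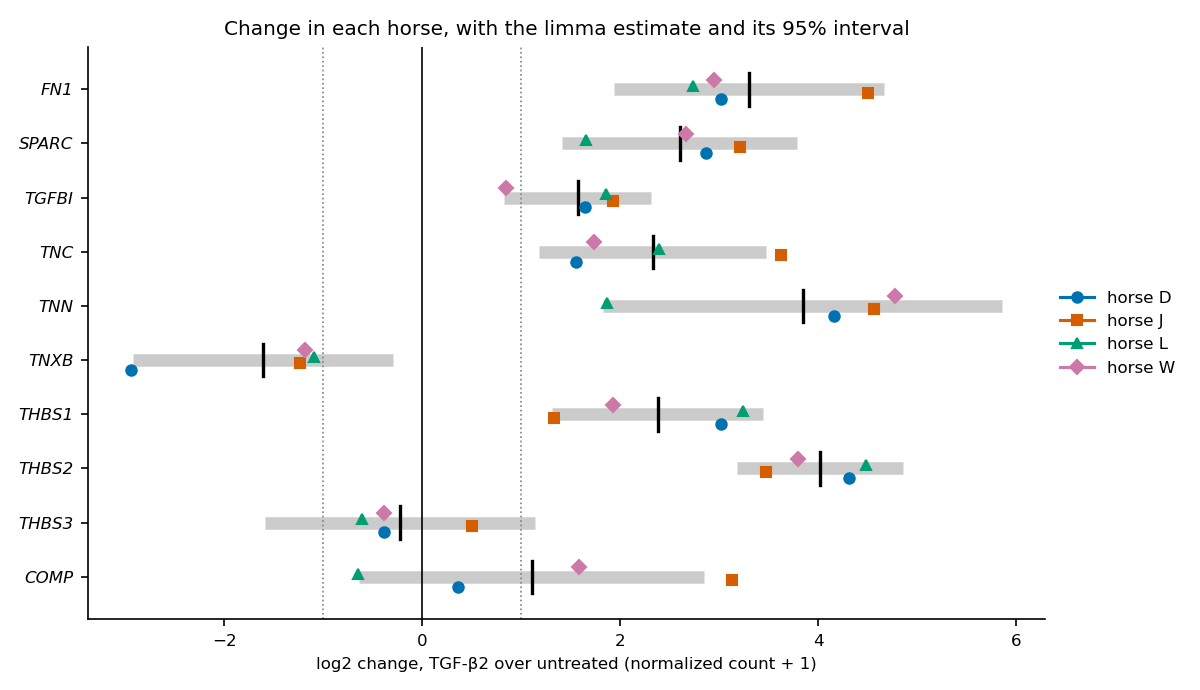
Log2 change from untreated to TGF-β2-treated cells (horizontal axis) for each gene, with 1 point per horse, the limma log2 fold change without a horse term as a black bar and its 95% interval in grey. Dotted lines mark a log2 change of 1 in either direction. The intervals of THBS3 and COMP contain 0 and THBS2 has the highest estimate, 4.02.

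Which family members changed relative to one another was examined by ratios within a library, which do not depend on how libraries are scaled. Ratios of 6 pairs were compared between the 4 treated and 4 untreated libraries by a two-sided exact permutation test, whose smallest possible p is 0.0286 over 70 assignments. This test treats the 8 libraries as exchangeable and ignores that they come in pairs from the same horse. Exchanging labels within horses, a test added after the values were seen, leaves 16 assignments and a smallest possible p of 0.125, so it cannot reach 0.05. THBS2/THBS1, THBS3/THBS1, TNC/TNXB, FN1/TGFBI and FN1/SPARC all stood at that smallest value (exact p = 0.125), and TNN/TNC had an exact p of 0.25. The pairs were picked with earlier results of these data known. The ratio of THBS2 to THBS1 rose from -2.43 ± 0.32 to -0.80 ± 0.36 on the log2 scale (SD, n = 4). This was a rise by 1.64, or 3.11-fold, and it was seen in all 4 horses, from 1.25 to 2.14 (exact p = 0.0286, adjusted over the 6 pairs 0.0429). THBS3 relative to THBS1 fell by 2.60, from -5.81 ± 1.38 to -8.41 ± 0.21, in all 4 horses (exact p = 0.0286, adjusted 0.0429). The 4 treated libraries lay within -8.71 to -8.22 for this pair, whereas the untreated ones ran from -7.49 to -4.55.

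TNC relative to TNXB rose by 3.94, from 6.27 ± 1.1 to 10.21 ± 1.11 (SD, n = 4; exact p = 0.0286, adjusted 0.0429), by 2.92 to 4.86 in single horses. The groups already lay apart for TNC and for TNXB, in opposite directions. Their ratio therefore had to reach the smallest possible p, and this test adds nothing to the values of the 2 genes. The ratio of FN1 to TGFBI rose by 1.73 in the mean and in all 4 horses, from 0.88 in L to 2.57 in J (exact p = 0.0286, adjusted 0.0429). FN1 relative to SPARC was 1.23 ± 0.54 in untreated and 1.93 ± 0.43 in treated cells, and the ranges overlapped (exact p = 0.0571, adjusted 0.0686). For TNN relative to TNC the values were -6.75 ± 1.85 and -5.23 ± 0.48, higher after treatment in 3 horses and lower in L (exact p = 0.229, adjusted 0.229).

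**Figure D3:**
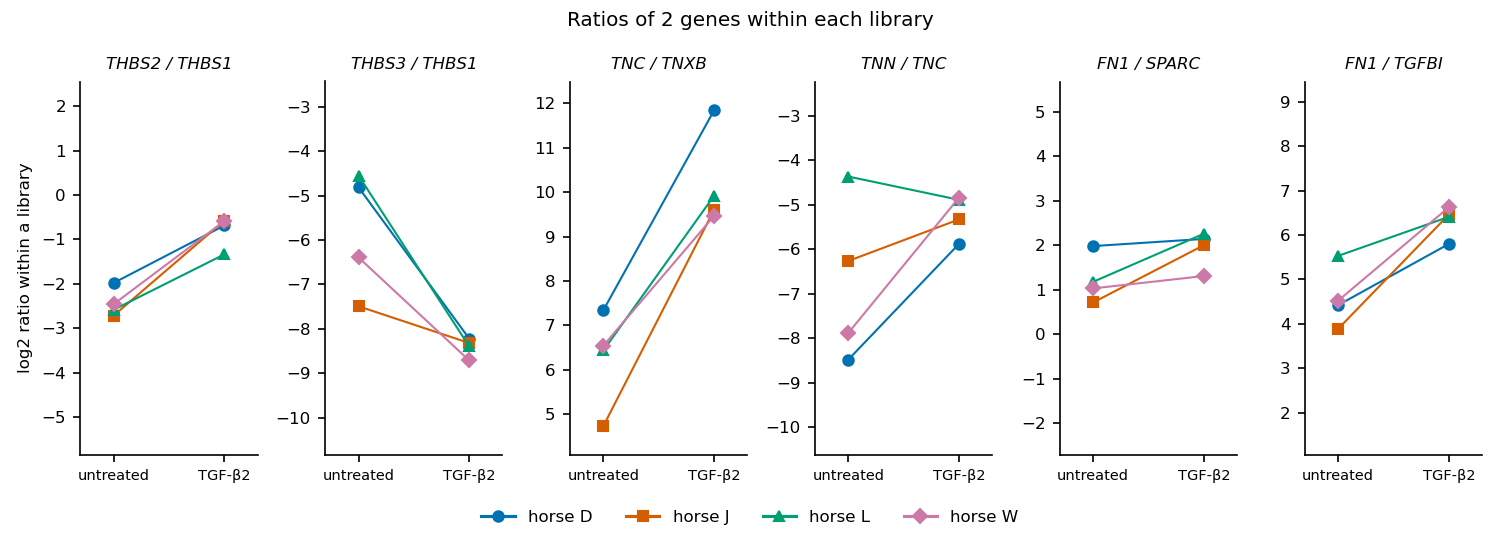
Log2 ratio of a pair of genes within each library (vertical axes of equal length), untreated and TGF-β2-treated, with 1 line per horse. Groups do not overlap for THBS2/THBS1, THBS3/THBS1, TNC/TNXB and FN1/TGFBI, and they overlap for TNN/TNC and FN1/SPARC.

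The 10 genes together took 0.646% to 2.49% of counted reads in untreated and 7.18% to 11.5% in treated libraries. FN1 alone took 0.265% to 1.54% and, after treatment, 5.09% to 8.05%. The share of SPARC went from between 0.161% and 0.680% to between 1.27% and 2.20%. Such shares count reads and not molecules, since no transcript lengths were used, so levels are not compared between genes. With all libraries brought to equal totals, the shift of the median gene was -0.31 (log2), and the calls over all genes shifted from 834 higher and 875 lower to 587 and 1541. Under that scaling FN1, SPARC, TGFBI, TNC, TNN, THBS1 and THBS2 were still called higher, with log2 fold changes from 1.26 for TGFBI to 3.70 for THBS2, where 3.94% of all genes were called higher. TNXB was then called lower, at -1.92 with a limma adjusted p of 0.0262 (10.3% of all genes were called lower).

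**Figure D4:**
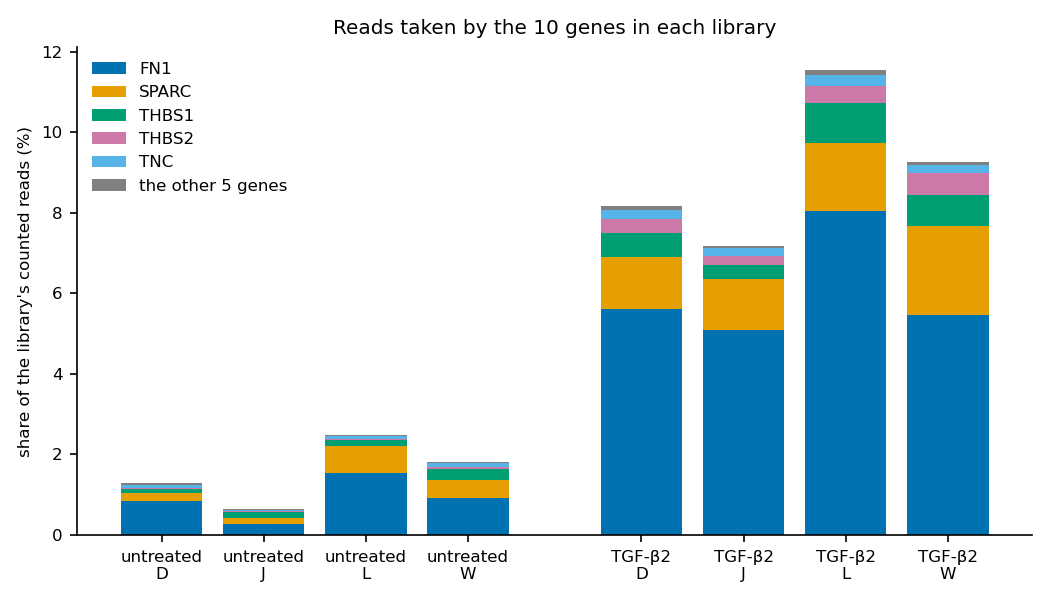
Share of the counted reads of each library (%) taken by the 10 genes, stacked by gene, for the untreated and treated library of each horse. The stacks reach 0.646% to 2.49% without treatment and 7.18% to 11.5% with it, and FN1 is the tallest part of each.

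Horses differed more before treatment than after it for some of these genes. The highest untreated FN1 value was 6.34 times the lowest, and the highest treated value 1.87 times the lowest. For TNC these ratios were 4.85 and 1.81, for SPARC 4.59 and 2.03, and for TNN 16.3 and 3.29. The treated range was the wider for TNXB, with 1.84 untreated and 6.48 treated, for COMP, with 3.93 and 10.5, and, by less, for THBS1 and THBS2. The range over horses was wider in untreated cells for 6 of the 10 genes. The same was true on the log2 scale of 65.8% of all genes tested, so the 10 genes did not stand out in this.

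Receptors for these proteins were examined next, by lists drawn up with earlier results of these data known. Of 8 tested receptors that bind fibronectin, 4 were called higher and 1 lower, against 5.59% and 5.87% of all genes tested. ITGB3 rose from 1432 ± 353 to 9180 ± 1150 (SD, n = 4, normalized counts), or by 2.71 on the log2 scale (limma adjusted p 2.38e-04). ITGA5, which with ITGB1 forms the principal fibronectin receptor, rose from 17936 ± 2590 to 99379 ± 20586 (limma adjusted p 2.90e-04). Both rose by similar amounts in each horse, ITGB3 by 2.48 to 2.98 and ITGA5 by 2.26 to 2.75 on the log2 scale. ITGA4 and ITGAV were the other receptors called higher, with log2 fold changes of 2.39 and 1.32. ITGB1 itself, at 0.91 on the log2 scale, did not reach the fold threshold (limma adjusted p 0.0123). The gene called lower was SDC4, for the proteoglycan syndecan-4, which helps cells grip fibronectin, at -2.0 (limma adjusted p 0.00404). The median log2 fold change of the list was 1.11.

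Among 7 tested receptors of tenascin-C, ITGAV and ITGB3, shared with the fibronectin list, were called higher and 1 gene lower, again beside 5.59% and 5.87% of all genes. ITGA9 fell from 3244 ± 1193 to 433 ± 188 (SD, n = 4, normalized counts), by 2.92 on the log2 scale (limma adjusted p 0.00124), and was lower in all 4 horses. The median of the list was -0.09. Of the 8 receptors and partners of thrombospondins, 2 were called higher, and 0 lower, with a median of 0.29. These were ITGAV and ITGB3, already counted in both lists above, and the shares over all genes were 5.59% higher and 5.87% lower. CD47, a thrombospondin receptor of the cell surface, was at -1.02 (limma adjusted p 0.0536) and was called with the horse as a block (0.0257). CD36, the other classical thrombospondin-1 receptor, had 1.19 to 219.5 normalized counts and was not called (limma adjusted p 0.647).

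Of 6 tested relatives of SPARC, 1 was called higher and 1 lower, with a median log2 fold change of 0.47, where 11.5% of all genes tested were called in either direction. SMOC2 had 1.74 to 14.2 normalized counts in untreated and 208 to 625 in treated libraries, and its fitted log2 fold change, 5.83 (limma adjusted p 0.00124), depends on the pseudocount since untreated D and J held few reads. SMOC1 fell from 6256 ± 1658 to 1670 ± 1310 (SD, n = 4), with a limma adjusted p of 0.0198. Its log2 change was only -0.16 in horse J and ran from -3.93 to -2.34 in D, L and W. FSTL1 had a log2 fold change of 0.77 (limma adjusted p 0.157). Of 9 other matricellular genes tested, 1 was called higher and 2 lower, with a median of -0.64, beside 5.59% higher and 5.87% lower of all genes tested. With the block 2 were called higher and 2 lower (6.83% and 7.31% of all genes tested). The gain was FNDC1, at 4.11 (limma adjusted p 0.0744, and 0.0482 with the block), which was lower after treatment in horse L. CTGF (also CCN2) rose by 1.67 on the log2 scale. WISP2 (CCN5) fell from 10098 ± 1187 to 3933 ± 1058 (limma adjusted p 0.00265), and TNR, the remaining tenascin gene tested, from 40.7 ± 12.4 to 12 ± 9.91 (limma adjusted p 0.0337). The treated and untreated ranges of TNR overlapped, and its count was 4 to 55 reads a library. CYR61 (CCN1) was at 0.22, within the spread between horses. POSTN, VTN, THBS4, CCN6 and SPARCL1 were not analysed here.

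**Figure D5:**
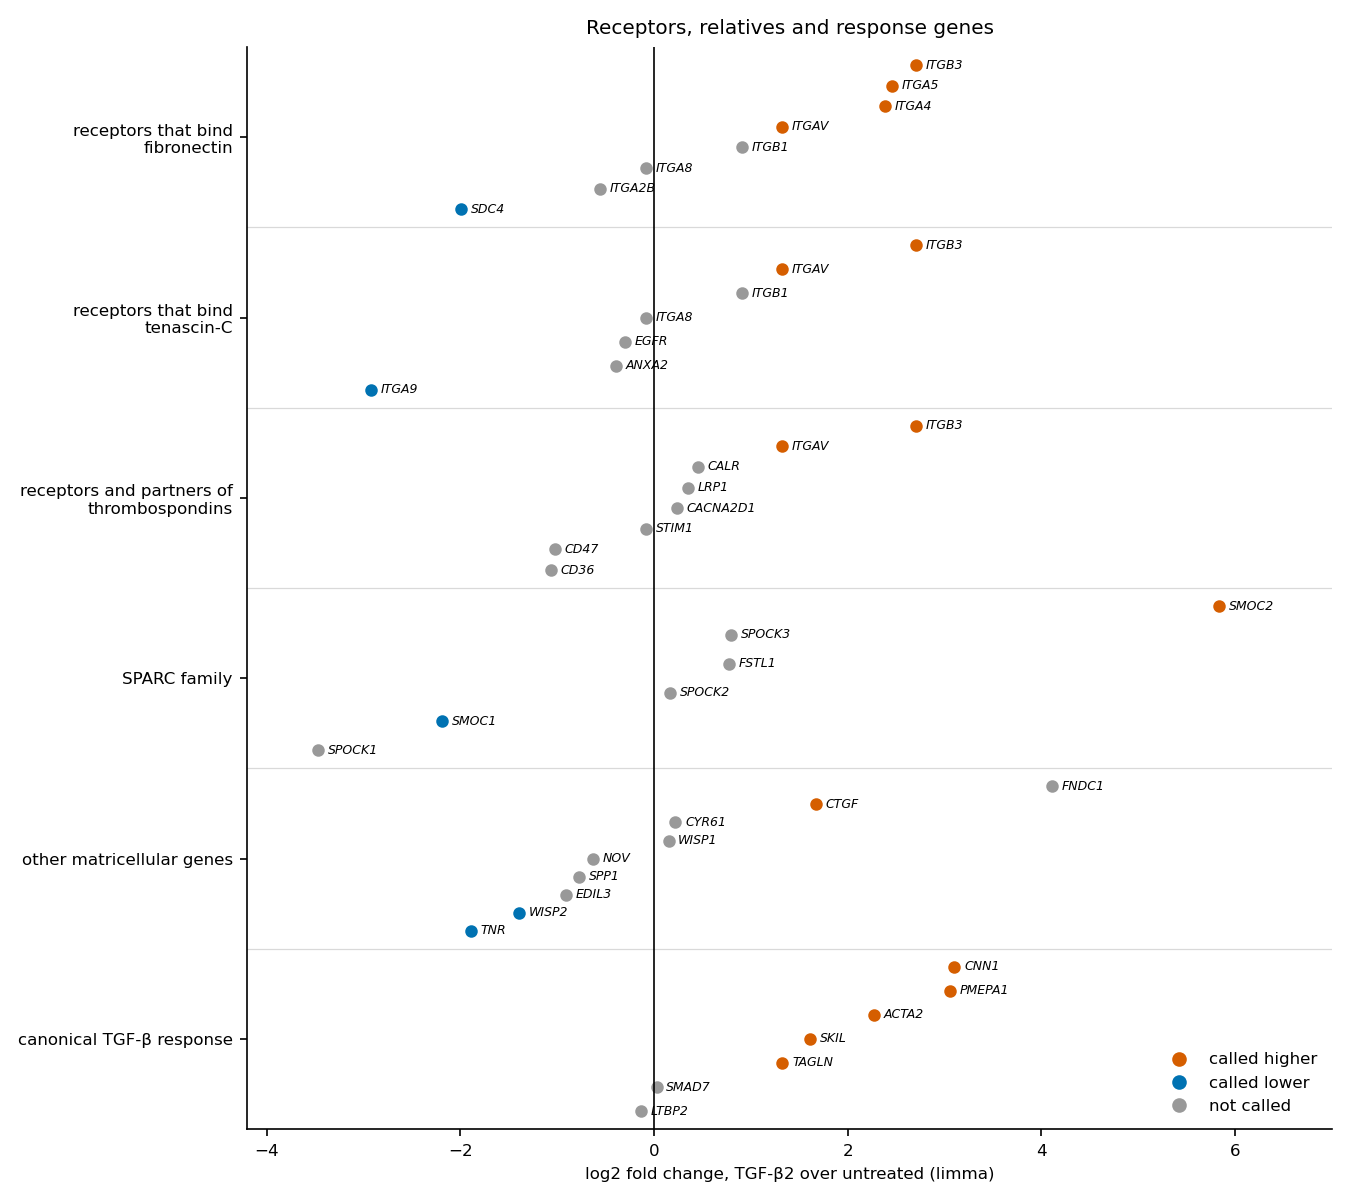
Log2 fold change of receptors, relatives and TGF-β response genes (horizontal axis), grouped by list, with orange for genes called higher, blue for genes called lower and grey for genes not called. Of the fibronectin receptors 4 are called higher and SDC4 lower, and ITGA9 lies lowest of the tenascin-C receptors at -2.92.

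As a check of the treatment, 7 genes known to respond to TGF-β were read. Of these, 5 were called higher and 0 lower, with a median log2 fold change of 1.61, against 5.59% higher and 5.87% lower of all genes tested. The log2 fold change was 3.10 for CNN1, 3.06 for PMEPA1 and 2.27 for ACTA2, and SMAD7 and LTBP2, at 0.02 and -0.13, were not called. All 5 stromal markers were present. THY1 (CD90) fell by 2.21 on the log2 scale (limma adjusted p 0.0494) in all 4 horses, and ITGB1, CD44, ENG and NT5E were not called. The summed level of the 4 leukocyte markers read was 218 to 394 normalized counts in untreated and 169 to 272 in treated libraries, with PTPRC between 1.19 and 109.7. The 2 endothelial markers read, CDH5 and KDR, summed to 7.10 to 26.3 and 30.0 to 55.7. KDR was called higher and CDH5 was not called, where 5.59% of all genes tested were called higher. The median log2 fold change of these 2 was 1.39. The part of these cells in the values above was not tested, and CD14, CD34, PECAM1, VWF and TIE1 were not analysed here.

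Genes with the most similar profiles were found by the root mean square difference of log2 values over the 8 libraries, each gene centred on its own mean. For FN1 they were ADAM12 (0.35), TPBG (0.40) and ASAP2 (0.41), where the median over 14897 genes was 1.84. For THBS2 the nearest genes with a name were INHBA (0.44), the activin A subunit, and STOX1 (0.49), after the unnamed gene LOC111768362 (0.35). The median distance from THBS2 was 2.10. POU5F1 was nearest to TNXB (0.30), with a log2 fold change of -1.98, followed by the unnamed genes LOC111769188 and LOC111775346. From TNXB the median distance was smaller, 1.20. These profiles share libraries, horses and treatment, and the likeness is given as a description.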

How the data were processed

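The authors used Trimmomatic 0.36 for trimming paired-end reads, STAR 2.5.2b for alignment to EquCab 3.0 and featureCounts (Subread 1.5.2) for unique hits per gene, and deposited normalized counts, a signal of gene counts divided by 1 size factor per library and not by gene length. Each value was a whole multiple of the value of 1 read (100% of values within a tolerance of 0.001), so reads were recovered. A row without a gene name, 0.0281% to 0.0531% of the reads, was left out. Genes at 10 normalized counts or more in 4 or more libraries were tested with limma 3.58.1 (trend, R 4.3.3) on log2(normalized count + 1), without a horse term. The horse was a block in an alternative. The pairing comes from the animal: deviations from the group mean correlated between a horse's libraries (0.386 to 0.609 across genes). Alternatives were scaling (TMM, upper quartile, total), filter (none, 50), pseudocount (0.5, 5), no trend, edgeR 4.0.16 and DESeq2 1.42.0 on recovered reads, thresholds, and each horse left out with and without the block. Ratios were tested with scipy 1.17.1 over all libraries and, added after the values were seen, within horses. Procedures were tested on simulated data with the same spread for every gene and no horse effect, so that test does not cover differences between horses. The genes followed, the lists and the pairs were chosen with earlier results of these data known. Named in the text are these 10 genes, up to 3 called genes in each direction per list with some background members, and the 3 nearest profiles of FN1, THBS2 and TNXB. IBSP, ALPL, SP7, ACAN and MATN3 are fixed markers. Gene neighbours came from RefSeq's TB-T2T table, another assembly than EquCab 3.0, so no coordinates are given. One item of the response list is not reported here, and the counts of that list are without it.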

Additional observations from a re-analysis of the deposited data

Results flagged for a closer look

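In groups of 4 the highest or lowest value was compared with its nearest neighbour, relative to the range, for 42 groups, of which 6 had a value apart from the rest. About 1 in 20 groups would show this by chance. In untreated cells, TNC of horse J was low at 7053 normalized counts, TNN of horse L high at 1465 and THBS2 of horse W high at 19961. The log2 change of FN1 was apart in horse J, at 4.50, and that of TNXB in horse D, at -2.94. The log2 ratio of THBS2 to THBS1 in treated cells was apart in horse L, at -1.34. Horse J, which holds the TNC and FN1 values, also gave the untreated library that lay farthest from the others over all genes. Without horse J all 7 genes called higher were still called, beside 1899 of all genes tested without a horse term.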

How the results depend on the processing

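Without a horse term 7 of the 10 genes and 1709 of all genes were called, and with the horse as a replicate block 8 and 2108, where of the 10 genes TNXB was gained and no other call changed. At an adjusted p under 0.01 the counts were 3 and 885. Without a fold threshold 3403 of all genes had an adjusted p under 0.05. With 1 horse left out, with or without the block, they ran from 1 to 8 of the 10 genes and from 718 to 2442 of all genes. The lowest values came without horse D and no horse term, when THBS2 alone of the 10 was called. Without L and without W, again with no horse term, 4 of the 10 were called, beside 1300 and 795 of all genes. These fits have 6 libraries in place of 8. Over 20 alternatives for each of the 10 genes, no direction reversed, and 179 of 200 values kept their side of the threshold. The limma block, the filters and the fit without a trend leave the log2 fold change as it is, so they could not reverse a direction. THBS3 and COMP were called in none of the fits and therefore count as keeping their side in all 20. Apart from horses left out, the calls that changed were those of TNN, lost with edgeR without a horse term, and TNXB, gained with the block, with total scaling and with DESeq2. The log2 differences of THBS2/THBS1 (1.64), THBS3/THBS1 (-2.60), TNC/TNXB (3.94) and FN1/TGFBI (1.73) had an exact p of 0.125 with labels exchanged within horses as a replicate block, the smallest that 4 pairs allow, so this test cannot show whether they hold. With 1 horse left out, THBS3/THBS1 ran from -3.19 without J to -2.18 without L and TNN/TNC from 1.01 without W to 2.20 without L, moves larger than the SD of the treated libraries. The pseudocounts of 0.5 and 5 left each ratio on its side of the threshold. TNXB, TNN and COMP had as few as 21, 103 and 105 reads in a library, which limits their precision, and 4 horses limit that of every gene.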
